A study of Caenorhabditis elegans with 2 samples.

Results

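The large subunit of the cytosolic ribosome is represented here by the 50 nuclear protein-coding genes of C. elegans whose names start with rpl- or rla- and a digit. They were taken by name from the Ensembl annotation of WBcel235 (ce11), which holds 19973 nuclear protein-coding genes. The naming rule used no measured value, but the genes were chosen with earlier results of these data known. A name does not show that the product is part of the mature subunit, and some of the genes are copies of the same gene. Binding of MEF-2, a MADS-box transcription factor, was mapped by chromatin immunoprecipitation and sequencing (ChIP-seq) in strain OP301 (unc-119(tm4063) III; wgIs301), from whole larvae of mixed sex at L1, the stage after hatching. The strain carries an inserted transgene that supplies MEF-2 fused to eGFP, and the labels name neither the sequence that drives it nor the state of the chromosomal mef-2 gene. There was 1 group, of 2 biological replicates, and every library came from all tissues of the larva together, so a site cannot be given to a cell type. No condition was compared, and no control was used here, so the counts below are descriptions with no test.

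Ribosomal proteins of the large subunit fold around its ribosomal RNA, which forms the peptidyl transferase centre, where amino acids are joined. Some of them line or ring the tunnel through which the new chain leaves, some anchor the 5S ribosomal RNA, and the acidic proteins of the stalk recruit elongation factors. As a family, ribosomal protein genes are broadly expressed, and cells make most of their products in near equal amounts. This need not hold for each copy of a duplicated gene, and expression was not measured here. MEF2 factors are best known from muscle and neurons, where they bind an A/T-rich element.

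The authors' thresholded list held 832 intervals, 806 of them on nuclear chromosomes, and was made up of the 832 strongest of the 28182 intervals in the list called on the pooled replicates. The relaxed lists, which hold background as well as peaks, had 30000 intervals in replicate 1 and 16385 in replicate 2. The authors' caller gave every interval a signal value, here used only within a list since its scale is not stated; rank 1 is the strongest interval of a list. Depth is unknown. A site is the point source of an interval. The 5' window of a gene reaches 1000 bp upstream and 200 bp downstream of its outermost annotated end, and sites inside it are called 5' end sites. A site was placed in a gene body when it lay farther downstream inside the gene.

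MEF-2 sites lay at the 5' ends of 19 of the 50 large subunit genes (38%) in the thresholded list, against 2.93% of all nuclear protein-coding genes. All 19 sites were upstream of the gene, as were those of 563 of all 585 genes with a thresholded 5' end site. None lay in a gene body, where 0.821% of all genes had one. Over 50 genes both counts are near the background. The strongest stood upstream of rpl-3 (signal value 148.9), rpl-15 (111.9), rpl-20 (101.1), rpl-35 (99.5), rpl-12 (75.0) and rpl-11.2 (72.4), and the other 13 had values from 28.0 to 38.9. The gap between 72.4 and 38.9 sets these 6 genes apart from the other 13. In the annotation the 6 genes are WBGene00004414 (rpl-3), WBGene00004427 (rpl-15), WBGene00004432 (rpl-20), WBGene00004449 (rpl-35), WBGene00004424 (rpl-12) and WBGene00004423 (rpl-11.2).

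The sequence around the point source of the 6 strongest sites is shown first, because these are the sites at which the signal value was highest. Each line runs 5' to 3' in the direction of the gene and covers 100 bp to each side of the point source, cut back at rpl-12 to 154 bp, at the annotated 5' end of that gene. Capitals mark CCTAAA or its reverse complement TTTAGG, and ACCGTA or its reverse complement TACGGT, both of which were picked after these sequences had been seen. On ce11 the windows are chrIII:3867475-3867675 (forward strand), chrIV:654823-655023 (reverse), chrIV:4749963-4750163 (reverse), chrIII:7854594-7854794 (forward), chrIV:13240652-13240805 (reverse) and chrX:2242900-2243100 (reverse).
rpl-3: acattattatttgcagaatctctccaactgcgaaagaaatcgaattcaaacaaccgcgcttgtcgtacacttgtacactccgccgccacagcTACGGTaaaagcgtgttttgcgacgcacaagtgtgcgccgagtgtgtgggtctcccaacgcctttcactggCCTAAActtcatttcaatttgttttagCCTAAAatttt
rpl-15: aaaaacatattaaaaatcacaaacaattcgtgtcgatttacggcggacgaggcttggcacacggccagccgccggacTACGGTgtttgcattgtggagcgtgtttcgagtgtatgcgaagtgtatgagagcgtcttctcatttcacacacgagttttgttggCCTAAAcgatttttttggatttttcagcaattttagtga
rpl-20: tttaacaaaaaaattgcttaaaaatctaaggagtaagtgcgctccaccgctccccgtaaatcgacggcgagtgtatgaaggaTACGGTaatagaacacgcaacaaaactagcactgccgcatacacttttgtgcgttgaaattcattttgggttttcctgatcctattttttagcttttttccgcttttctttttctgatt
rpl-35: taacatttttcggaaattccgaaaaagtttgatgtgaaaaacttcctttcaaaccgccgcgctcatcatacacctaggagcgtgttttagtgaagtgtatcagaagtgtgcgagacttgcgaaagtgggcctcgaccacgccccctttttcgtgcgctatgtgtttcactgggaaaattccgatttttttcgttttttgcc
rpl-12: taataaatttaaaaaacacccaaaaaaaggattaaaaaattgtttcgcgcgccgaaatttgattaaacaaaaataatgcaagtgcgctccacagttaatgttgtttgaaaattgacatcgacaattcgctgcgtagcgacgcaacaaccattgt
rpl-11.2: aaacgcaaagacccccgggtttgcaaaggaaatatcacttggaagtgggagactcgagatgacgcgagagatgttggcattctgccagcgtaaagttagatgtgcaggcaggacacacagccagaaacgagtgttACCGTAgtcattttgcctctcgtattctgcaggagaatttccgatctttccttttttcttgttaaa

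The next windows are those of 4 more sites that held CCTAAA; they are chrV:7776230-7776430 (reverse strand), chrV:12728380-12728580 (reverse), chrII:8569408-8569608 (forward) and chrII:14154459-14154659 (forward).
rpl-39: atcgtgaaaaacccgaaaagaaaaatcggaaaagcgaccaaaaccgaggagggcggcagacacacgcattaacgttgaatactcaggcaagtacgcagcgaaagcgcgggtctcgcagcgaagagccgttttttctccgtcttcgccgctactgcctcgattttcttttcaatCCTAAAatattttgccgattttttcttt
rpl-28: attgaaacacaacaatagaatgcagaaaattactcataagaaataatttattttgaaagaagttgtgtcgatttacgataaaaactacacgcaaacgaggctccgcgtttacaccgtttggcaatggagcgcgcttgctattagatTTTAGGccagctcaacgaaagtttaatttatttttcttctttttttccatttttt
rpl-5: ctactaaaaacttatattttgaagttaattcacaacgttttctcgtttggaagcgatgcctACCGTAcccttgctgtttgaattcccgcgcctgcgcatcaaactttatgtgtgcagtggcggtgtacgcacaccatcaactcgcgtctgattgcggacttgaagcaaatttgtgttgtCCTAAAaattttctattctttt
rpl-43: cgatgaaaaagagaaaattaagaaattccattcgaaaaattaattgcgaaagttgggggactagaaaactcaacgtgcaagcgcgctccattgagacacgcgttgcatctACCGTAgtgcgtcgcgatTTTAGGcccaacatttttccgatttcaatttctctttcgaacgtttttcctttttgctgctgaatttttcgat

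CCTAAA occurred within 100 bp of the point source at 8 of the 19 sites of large subunit genes (42.1%), against 6.20% of all 806 nuclear thresholded sites, those 19 included. At 6 of the 8 sites it read along the gene, in 7 matches, and each began 48 to 90 bp past the point source, on the side of the gene. At rpl-28 and rpl-43 it read on the other strand, 46 and 28 bp past the point source. At rpl-3 the match occurs in 2 copies, both visible near the end of its line above. ACCGTA, searched on both strands, occurred at 9 of the 19 sites (47.4%), against 6.58% of all nuclear thresholded sites and 11.5% of those at a 5' end. Both strings were present at 5 sites, those of rpl-3, rpl-15, rpl-5 and rpl-43 among them, and neither at 7 sites, rpl-35 and rpl-12 among them. Since both were chosen from these windows, their counts at the sites describe the choice and support nothing.

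In the 250 bp before the 5' end, CCTAAA on either strand was present in 23 of the 50 large subunit genes (46%), in 48.4% of the 31 small subunit genes and in 11.0% of all nuclear protein-coding genes. On the strand of the gene it was present in 34% of large subunit genes, against 6.63% of all genes, and on the other strand in 18%, against 4.74%. It was found on the strand of the gene in 7 of the 19 genes with a thresholded site (36.8%) and in 10 of the 31 without (32.3%). ACCGTA was present in this window in 7 of the 50 genes (14%), against 7.09% of all genes. At some genes the 250 bp overlap the site windows from which both strings were picked. At rpl-3, rpl-31, rpl-39 and rpl-22 the CCTAAA matches at the site lie in the 250 bp too. These counts are thus not independent of the choice, and no conclusion is drawn from them.

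The MEF2 element, searched by its consensus on both strands, had no match within 100 bp of the point source at any of the 19 sites, against 4.96% of all nuclear thresholded sites. That share would correspond to about 1 site in 19, so the count of 0 is close to the background. With 1 mismatch allowed, 8 sites (42.1%) held a match, against 33.7% of all sites, and within 250 bp of the point source 6 did (31.6%), against 15.9%. In the 250 bp before the 5' end, 7 of the 50 genes (14%) held the element, against 10.5% of all genes.

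Of the other strings searched, GAGAGA and CTGCGTCT had the lower shares that stood farthest from those over all nuclear thresholded sites. GAGAGA, the commonest string over all 806 sites, was present on either strand at 4 of the 19 sites (21.1%), against 52.0% of all sites and 42.9% of those at a 5' end. The string CTGCGTCT was present at the site of rpl-41.2 alone (5.26%), against 18.7% of all sites and 15.7% of those at a 5' end. There was no match at the 19 sites for TATAAA, the E-box CACGTG or CNCCGCCC, which were present at 10.2%, 10.3% and 4.47% of all sites. TGATAA was found at the site of rpl-24.2 alone, against 9.18% of all sites, and a run of 7 thymines, TTTTTTT, at 6 sites (31.6%), against 22.8%; over 19 sites such counts are near those shares. The sites had a median G+C share of 41.8%, with a range from 33.3% to 52.7%, against 45.3% over all nuclear thresholded sites.

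In the pooled list 47 of the 50 genes (94%) had a site at the 5' end, against 38.5% of all nuclear protein-coding genes. The count was 46 (92%) in the list of replicate 1, against 39.6% of all genes, and 40 (80%) in that of replicate 2, against 25.3%. Both replicate lists had a site at 38 of the 50 genes (76%), against 16.1% of all genes. The 3 genes with no pooled 5' end site were rpl-27, rpl-33 and rpl-42. At rpl-33 and rpl-42 no list held a 5' end or gene body site, and rpl-27 had a 5' end site in replicate 2 alone, 348 bp upstream at rank 15812. The rpl-27 gene body held a pooled site 257 bp downstream at rank 10205, and a replicate 1 site 204 bp downstream at rank 4457.

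The sites of large subunit genes ranked higher than those over all protein-coding genes, as did those of small subunit genes. Where a gene had a pooled site, the strongest had a median rank of 1518 over 47 large subunit genes, against 10003 over all 7686 genes with one, and 78.7% of the large subunit genes were within rank 5000, against 31.9% of all genes. The medians were 2125.5 and 11088 in the list of replicate 1, and 907 and 5621.5 in that of replicate 2, for large subunit genes and all genes in that order. Over small subunit genes the medians were 981 in the pooled list, 1581 in replicate 1 and 848 in replicate 2. The higher ranks were thus present in each replicate by itself.

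**Figure D1:**
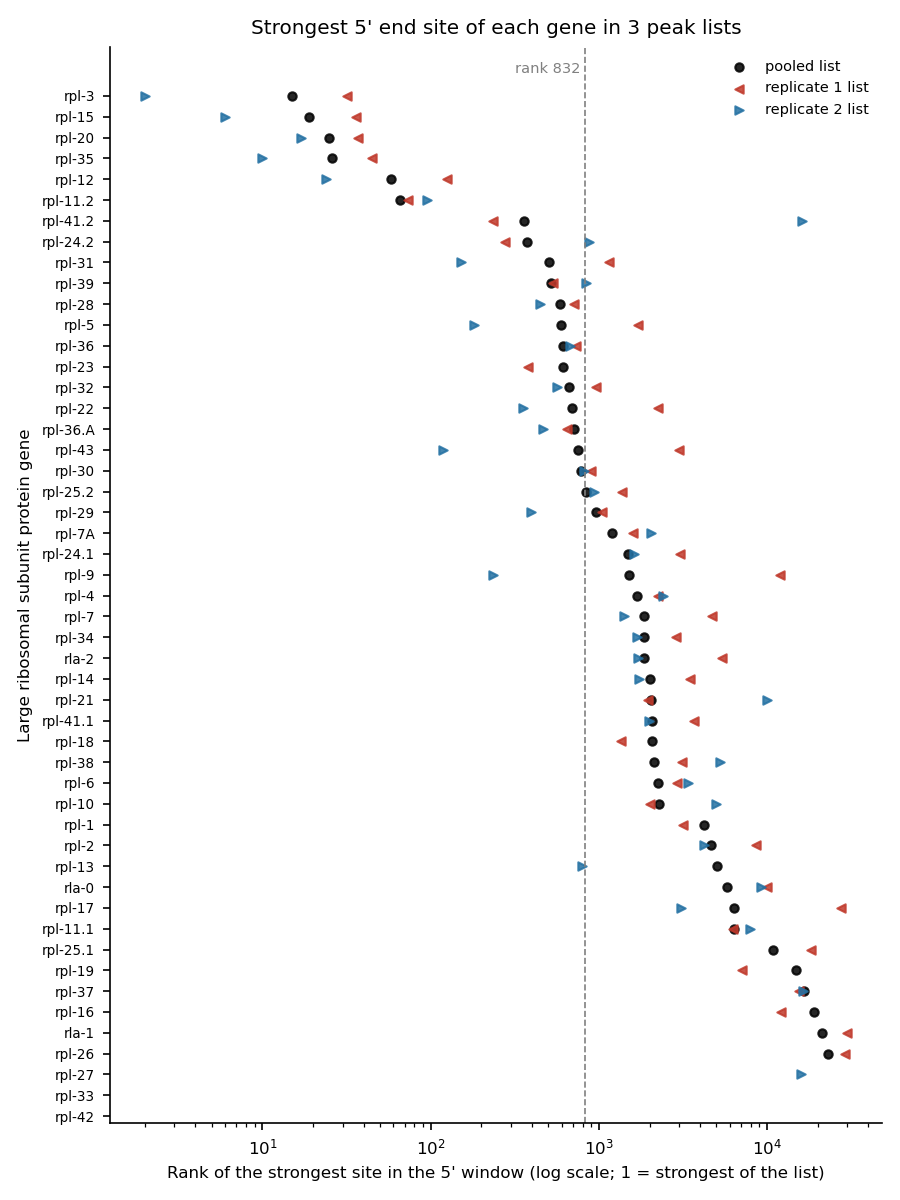
Rank of the strongest site in the 5' window of each of the 50 genes (rows) on a log axis, in the pooled list (black circles) and in the lists of replicate 1 (red) and replicate 2 (blue), with a dashed line at rank 832. The first 19 genes have a pooled rank from 15 to 781, rpl-25.2 follows at 833, and a missing point means no site in that list.

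Cytosolic small subunit genes had shares close to those of the large subunit, as the plot of shares by gene list shows. Of 31 rps- genes, 13 had a thresholded site (41.9%) and 30 a pooled site. The strongest values there were 77.1 at rps-12 and 76.5 at rps-1, at ranks 51 and 52, below the 4 strongest large subunit sites. Genes for the large subunit of the mitochondrial ribosome, a separate particle that makes the proteins encoded in mitochondrial DNA, had 4 thresholded sites in 41 genes (9.76%) and 25 pooled sites. Among 11 genes chosen by hand for large subunit assembly and the nucleolus, 2 had a thresholded site, the rRNA methyltransferase gene fib-1 (38.5) and rbd-1 (35.2). Of 6 elongation factor genes, 5 had one, with the highest value at eef-1A.2 (84.9), which encodes the factor that brings aminoacyl-tRNA to the ribosome.

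**Figure D2:**
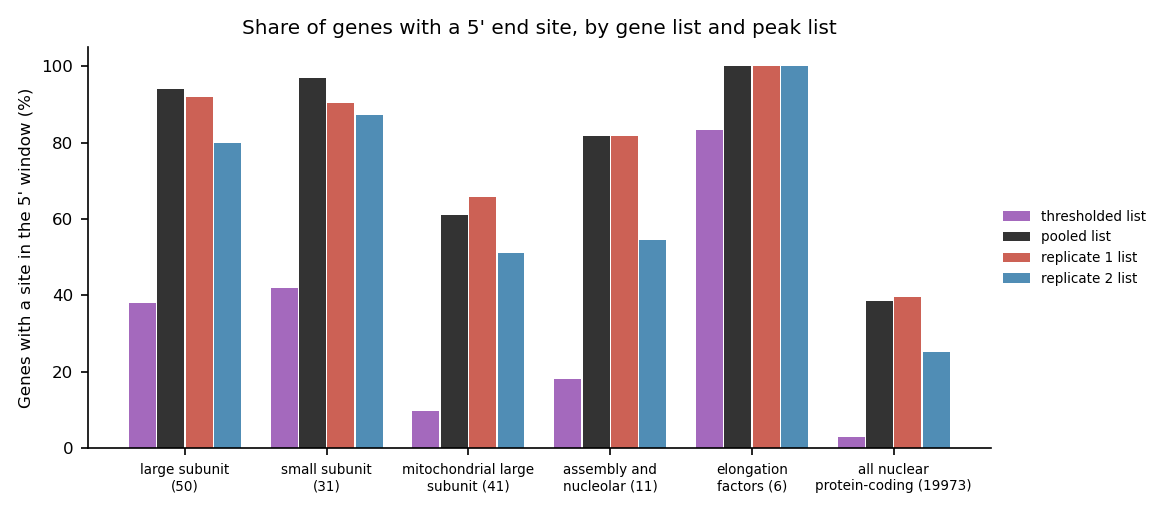
Share of genes (%) with at least 1 site in the 5' window, for large subunit genes and 4 other gene lists, with all nuclear protein-coding genes at the right; bars give the thresholded, pooled, replicate 1 and replicate 2 lists, and gene numbers stand in parentheses. Large subunit genes reach 38% in the thresholded and 94% in the pooled list, against 2.93% and 38.5% of all genes.

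By role, the proteins near the peptidyl transferase centre and the exit tunnel came from genes with both strong and weak sites. RPL-3 reaches toward the peptidyl transferase centre, and the site of its gene spanned chromosome III from 3867499 to 3867671, 279 bp upstream. It ranked 15 in the pooled list, 32 in replicate 1 (signal value 87.9) and 2 in replicate 2 (60.5). RPL-35 and RPL-31 sit at the rim of the tunnel exit. The rpl-35 site, on chromosome III from 7854636 to 7854764 and 440 bp upstream, ranked 26 in the pooled list, 45 in replicate 1 (62.9) and 10 in replicate 2 (35.5). That of rpl-31, 261 bp upstream with a pooled value of 34.3, ranked 1153 in replicate 1 (17.6) and 151 in replicate 2 (17.5). Rpl-3 and rpl-35 thus stood near the head of both replicate lists, while rpl-31 was among the 832 strongest in replicate 2 alone.

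RPL-39 is a small protein of the tunnel wall, and its gene had a site 251 bp upstream with a pooled value of 33.7, at rank 535 in replicate 1 (24.0) and 837 in replicate 2 (8.77). The gene of RPL-4, whose long loop lines the tunnel, had no thresholded site; its pooled site ranked 1683 with a value of 19.4. Rpl-4 and the rla- genes below, like rpl-29, lie outside the rule for named genes and were added after their values had been seen.

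RPL-5 and RPL-11 bind the 5S ribosomal RNA and enter the subunit with it. The rpl-5 site, 419 bp upstream with a pooled value of 31.4, ranked 1713 in replicate 1 (15.1) and 181 in replicate 2 (16.5). For RPL-11 the genome has the genes rpl-11.1 and rpl-11.2, and they differed widely. The site of rpl-11.2 spanned chromosome X from 2242830 to 2243169, 382 bp upstream, and ranked 66 in the pooled list, 73 in replicate 1 (53.2) and 95 in replicate 2 (20.1). The strongest pooled site of rpl-11.1 lay 178 bp downstream of its 5' end with a value of 10.8 and rank 6391, and replicate 1 had a site 180 bp downstream at rank 6296. Replicate 2 had its strongest at another place, 258 bp upstream at rank 7884. Rpl-11.2 ranked far above rpl-11.1 in every list.

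At the stalk, RPL-12 forms part of the base, RLA-0 joins the base to the acidic proteins, and RLA-1 and RLA-2 are those acidic proteins. The rpl-12 site spanned chromosome IV from 13240535 to 13240874, 54 bp upstream and nearest of the 19 to its gene, and ranked 58 in the pooled list, 125 in replicate 1 (42.7) and 24 in replicate 2 (30.6). None of the 3 rla- genes had a thresholded site, and their pooled values were 11.3 at rla-0, 6.59 at rla-1 and 18.4 at rla-2. Of the stalk genes only rpl-12 was thus in the thresholded list.

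The remaining 2 of the 6 strongest sites belonged to rpl-15 and rpl-20. The rpl-15 site spanned chromosome IV from 654866 to 654987, 347 bp upstream, and ranked 19 in the pooled list, 36 in replicate 1 (73.2) and 6 in replicate 2 (38.8). The rpl-20 site, on chromosome IV from 4750011 to 4750119 and 285 bp upstream, ranked 25 in the pooled list, 37 in replicate 1 (70.4) and 17 in replicate 2 (32.0). All 6 strongest sites were within rank 125 of either replicate. Below them, the replicates were less alike: rpl-23 had a pooled value of 31.1 and rank 381 in replicate 1 but no site in replicate 2, and rpl-41.2, with a pooled value of 38.9, ranked 236 in replicate 1 and 16039 in replicate 2. In the other direction rpl-43 (28.4) ranked 3004 in replicate 1 and 119 in replicate 2, and rpl-22 (29.7) ranked 2262 and 353.

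The other 6 thresholded sites were within rank 1000 in both replicates, whose lists differ in length. Rpl-28 (pooled value 31.7) ranked 710 in replicate 1 and 445 in replicate 2, rpl-36 (31.2) ranked 736 and 670, and rpl-36.A (29.3) ranked 643 and 466. For rpl-32 (30.2) the ranks were 968 in replicate 1 and 563 in replicate 2, and for rpl-30 (28.0) they were 899 and 819. Rpl-24.2 (38.4) ranked 276 in replicate 1 and 878 in replicate 2. Of the 19 sites, 18 overlapped an interval in both replicate lists. Among the 832 strongest of replicate 1 were 13 of the 19, beside 657 of all 806 nuclear thresholded sites. Among the 832 strongest of replicate 2 were 15, beside 540 of the 806. Among those of both were 9 (47.4%), beside 51.6% of all nuclear thresholded sites. The share in both was thus about that of the list as a whole. Taken singly, replicate 2 held more of the 19 sites, while replicate 1 held more of the whole list.

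Several genes share a number with another. In 4 pairs the genes encode near-identical copies or relatives of a single protein. Besides rpl-11, the pair rpl-24.1 and rpl-24.2 had pooled values of 20.4 (rank 1493) and 38.4 (rank 372), rpl-25.1 and rpl-25.2 had 8.85 (rank 10857) and 27.4 (rank 833), and rpl-41.1 and rpl-41.2 had 17.5 (rank 2075) and 38.9 (rank 358). In each of these pairs the second gene had the higher pooled value, and in replicate 1 too it ranked higher. In replicate 2 the order held for rpl-11, rpl-24 and rpl-25, where rpl-25.1 had no site, but for rpl-41 it turned round, at ranks 1990 for rpl-41.1 and 16039 for rpl-41.2. The genes rpl-7 and rpl-7A, whose proteins are unrelated, had pooled values of 18.5 and 22.8, and rpl-36 and rpl-36.A, also unrelated, had 31.2 and 29.3.

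Of the 31 genes without a thresholded site, 28 had a pooled 5' end site and 20 had a 5' end site in both replicate lists. Their best pooled ranks ran from 833 to 22903 with a median of 2178, and 16 of them lay between ranks 833 and 2500. At rpl-25.2 the pooled site was the first below the limit of the thresholded list, and the next gene, rpl-29, had a value of 25.3 at rank 964. Just inside the limit stood rpl-43 and rpl-30, at ranks 755 and 781.

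The 19 sites were placed within a narrow range. Their median position was 343 bp upstream of the 5' end, with quartiles at 384 and 259 bp upstream, against a median of 252 bp over all 585 genes with a thresholded 5' end site, whose quartiles lay at 453 and 144 bp upstream. Between 250 and 450 bp upstream, a range set after the positions had been seen, stood the sites of 16 large subunit genes (84.2%), against 26.0% of the 585. With every strongest pooled site counted, the share in this range was 59.6% of 47 large subunit genes, against 19.9% of all genes with one, and in replicate 1 it was 47.8%, against 19.9%. Small subunit genes lay close to the same place, with a median of 294 bp upstream in the thresholded list, 61.5% in this range, and 56.7% in the pooled list. Outside that range were rpl-12 (54 bp), rpl-24.2 (182 bp) and rpl-43 (735 bp). Where a replicate interval overlapped the thresholded one, the median shift of its site was 23 bp in replicate 1 (at most 73) and 17 bp in replicate 2 (at most 54). At rpl-23 no replicate 2 interval overlapped. Since overlap was required and the thresholded intervals came from the pooled replicates, short shifts follow largely from the choice and support nothing.

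**Figure D3:**
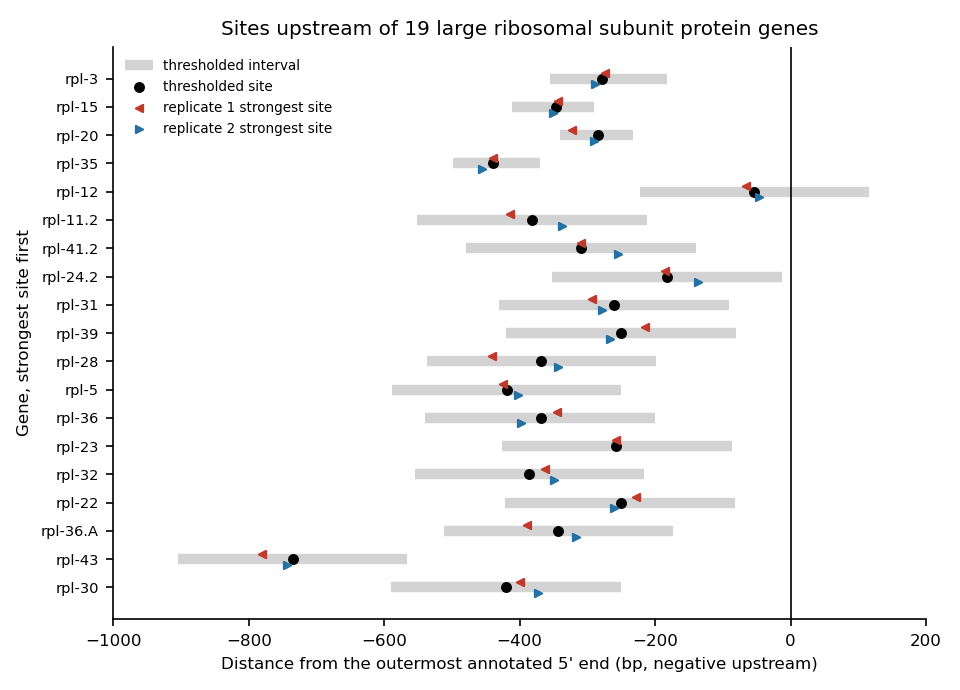
Distance in bp from the outermost annotated 5' end (negative upstream) of the thresholded sites (black) and their intervals (grey) for 19 genes, strongest at the top, with the strongest site of the same 5' window in replicate 1 (red) and replicate 2 (blue). Apart from rpl-12, rpl-24.2 and rpl-43, the thresholded sites lie between 250 and 450 bp upstream, and rpl-23 has no replicate 2 site.

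The annotated 5' ends of these genes lie close to the start codon, with a median of 6.5 bp between them over all 50 genes. C. elegans trims many transcripts by trans-splicing, which joins a leader RNA near the start codon, so an annotated 5' end need not be where transcription begins. Measured from the start codon instead, the 19 sites lay 145 to 735 bp upstream, with a median of 348 bp. In the pooled list 13 genes (26%) had a site in the bin from 400 to 300 bp upstream, against 4.22% of all genes, and 15 (30%) in the next bin, against 5.37%. In the thresholded list the same bins held 7 (14%) and 6 (12%) genes, against 0.290% and 0.611%.

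**Figure D4:**
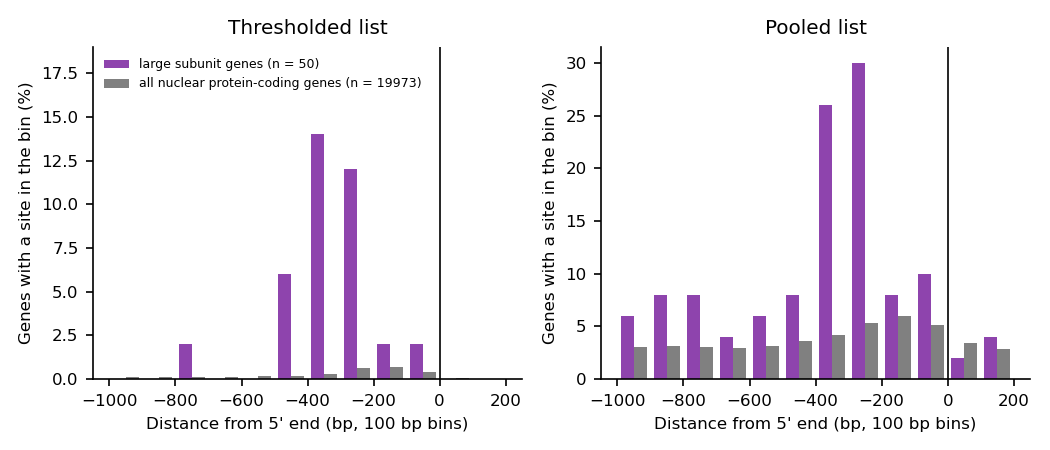
Share of genes (%) with a site in each 100 bp bin around the 5' end, for the 50 large subunit genes (purple, left bar of each pair) and all nuclear protein-coding genes (grey), in the thresholded and pooled lists; the vertical axes differ. The large subunit genes reach 14% (thresholded) and 26% (pooled) in the bin from 400 to 300 bp upstream.

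Large subunit genes have close neighbours, and many of their sites could belong to either gene. The median distance to the next gene upstream was 581.5 bp, against 937 bp over all nuclear protein-coding genes. It was under 1000 bp for 94% of large subunit genes, against 51.9% of all genes. The neighbour lay on the other strand for 66% of large subunit genes, against 46.2% of all genes. These counts take in neighbours at any distance and with no gap, such as those of rpl-35 (11497 bp) and rpl-24.2 (0 bp). Of the 19 sites, 13 lay in the 5' window of another protein-coding gene as well, 12 of them with a gene on the opposite strand, and 9 were nearer to that gene. Shared sites were common over all genes too. Of the 585 genes with a thresholded 5' end site, 287 had one in the window of no other protein-coding gene, beside 6 of the 19 here. With each site given to its nearest 5' end, 427 genes had one, beside 10 large subunit genes. The part of the neighbouring gene in the signal was not tested. Genes with a thresholded site had an upstream neighbour on the other strand in 14 of 19 cases (73.7%) and those without in 19 of 31 (61.3%).

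Some of the shared sites stood between ribosomal protein genes. The site of rpl-39 lay 251 bp upstream of it and 248 bp upstream of rps-30, that of rpl-36 lay 369 bp upstream of it and 294 bp upstream of rps-14, and that of rpl-28 lay 368 bp upstream of it and 151 bp upstream of the mitochondrial ribosomal protein gene mrpl-49. Farther off, the rpl-39 site also lay 970 bp upstream of C26F1.3 and the rpl-36 site 870 bp upstream of ndab-2. These 3 sites are counted in each list they serve, so the lists are not independent. The rpl-30 site lay in an exon of pab-1, a poly(A)-binding protein gene, 42 bp past its 5' end. The rpl-22 site lay 186 bp upstream of ify-1, that of rpl-36.A 290 bp upstream of nuo-1, a complex I subunit gene, and that of rpl-5 420 bp upstream of the collagen gene col-38, almost midway. Other sites nearer to the neighbour were those of rpl-20 (177 bp upstream of Y17G9B.5), rpl-31 (44 bp upstream of sac-2) and rpl-43 (186 bp upstream of Y48B6A.1).

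Sites nearer to the large subunit gene, though shared, were those of rpl-15 (467 bp upstream of K11H12.8), rpl-12 (339 bp upstream of lin-54, a gene of the DREAM complex) and rpl-23 (859 bp upstream of swp-1). In 6 cases, rpl-3, rpl-35, rpl-11.2, rpl-41.2, rpl-24.2 and rpl-32, the site lay in the window of no other protein-coding gene. Among these were 3 of the 6 strongest sites. The rpl-24.2 site lay in an intron of C03D6.1, and 17 of the 19 lay outside protein-coding genes, a count given without the share over all sites. Of these 17, the sites of rpl-39, rpl-5 and rpl-36.A lay over annotated non-coding RNA genes (C26F1.13 and C26F1.14, F54C9.16 and F54C9.17, and C09H10.13). With each site given only to its nearest 5' end, 10 large subunit genes (20%) had a thresholded site, against 2.14% of all genes under that rule.

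Gene bodies gave no comparable result. No large subunit gene had a thresholded site in its body, against 0.821% of all nuclear protein-coding genes, a share near 0 over 50 genes too. In the pooled list 8 of the 50 (16%) had at least 1, against 37.5%. Replicate 1 had 7 (14%), against 40.1%, and replicate 2 had 9 (18%), against 27.2%. The genes are short, with a median length of 753.5 bp, against 2027 bp over all genes, and these counts are not adjusted for it. Per kb of body the pooled list held 0.397 sites in large subunit genes, against 0.244 over all genes, so the lower share of genes was not a lower density. The best of the 12 pooled body sites was in an intron of rpl-19 at rank 3602, 403 bp downstream of the annotated 5' end. That end lies 642 bp before the start codon, so this site and another, 630 bp downstream, stand before the start codon. They are counted as body sites in the density above. None of the 12 lay over a snoRNA gene, and 3 genes (6%) had a body site in both replicates, against 18% of all genes. Rpl-19 lies outside the rule for named genes and was named after its values had been seen.

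Thresholded sites were found on all 6 nuclear chromosomes. The counts were 4 of 17 large subunit genes on chromosome I, 5 of 9 on II, 4 of 9 on III, 3 of 8 on IV, 2 of 5 on V and 1 of 2 on X, while the share over all genes was 3.54%, 2.49%, 4.58%, 3.44%, 1.62% and 3.00% in that order. Chromosome I, which holds more of these genes than any other, was thus the chromosome with the lowest share of them in the list, although the numbers per chromosome are small.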

How the data were processed

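Intervals came from the authors' deposited narrowPeak lists on ce11: a relaxed list for each of 2 replicates, a relaxed list of the pooled replicates, and a list thresholded by the irreproducible discovery rate, per the labels and the deposited file records. Each interval has the authors' signal value, a deposited −log10 q-value (not used for tests, since it is the same for all thresholded intervals) and a point source. The sources used here do not state the aligner, peak caller or limits. Lists on ce10 were not used. Neither reads nor a control were used here, so depth is unknown.

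Gene models were those of Ensembl release 115, with bases read from the WBcel235 RefSeq assembly, whose chromosome lengths hold every interval and gene end. Point sources were matched to genes with Python 3.11.15 and pandas 2.3.3, and the matching was checked on planted sites. No statistical test was run: counts of large subunit genes are set beside those of all nuclear protein-coding genes. Named genes are those with a thresholded site, those that share a number, those with no site, and genes whose window holds a named gene's site. The genes, lists and strings were chosen with earlier results of these data known, and CCTAAA and ACCGTA after the windows were seen. The sequences of some sites are not reported here. Genes are not replicates, and genes that share a site are not independent.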

Additional observations from a re-analysis of the deposited data

How the results depend on the processing

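The counts of large subunit genes with a 5' end site moved with the rule that gives a site to a gene and with the strength asked of it. With each site given to the nearest 5' end only, 10 genes had a thresholded site, 30 a pooled site and 21 a site in both replicate lists, in place of 19, 47 and 38; the shares of all genes under that rule were 2.14%, 32.5% and 11.9%. Thresholded sites at or above the list's median signal value of 37.2 lay at 8 genes, against 1.43% of all nuclear protein-coding genes, and the 832 strongest of each replicate shared 9 (1.56% of all genes). Sites in the window of no other protein-coding gene, an alternative chosen after seeing the data, lay at 6 (1.44%). Other 5' windows, any annotated transcript, interval overlap and the lists of single replicates left each count within 1.5 times. Leaving out a replicate gave 13 genes with the 832 strongest of replicate 1 (background 2.68%) and 18 with those of replicate 2 (3.00%), and 40 to 46 in the relaxed lists. Without chromosome I, also chosen after seeing the data, 15 of 33 genes had a thresholded site (2.83% of all genes there). By interval overlap, 1 gene had a thresholded body site and 13 a pooled one (1.10% and 43.5% of all genes). The median position was -326 bp with the window from 500 bp upstream to 100 bp downstream, and -327.5 to -323 bp with a single replicate, beside -343 bp. A MEF2 element was found at 8 sites with 1 mismatch (33.7% of all sites), at 6 within 250 bp (15.9%), and at 0 to 2 with a single replicate: 0 of 18 with replicate 2 (4.45% of its sites) and 2 of 13 with replicate 1 (5.11%). No paired analysis was possible because the data form 1 group. The causes of these shifts were not tested. Depth is unknown, so what weak sites can show is limited.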
